A study of Mus musculus with 3 samples.

Results

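The mRNAs described here encode ATP-dependent chromatin remodellers, subunits of their complexes, and bromodomain and ARID proteins, measured in RNA that came down with Mettl3 or with Zfp217. They were chosen by name. Every protein-coding row of the deposited tables was taken whose symbol starts with Smarc or Ino80, with Arid, Chd or Brd followed by a digit, with Baz1 or Baz2, or with Bptf, Pbrm1, Ep400 or Atrx, and Chd4 was left out. This gave 59 transcripts of 36 genes, out of 13595 transcripts listed in either table. Of these, 44 transcripts of 33 genes were listed for Mettl3 and 38 transcripts of 27 genes for Zfp217, and 23 transcripts were in both tables. The rule used symbols and transcript class, not measured values.

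The cells were CCE, an untreated line of mouse embryonic stem cells grown without feeders in medium with leukemia inhibitory factor. RNA immunoprecipitation (RIP) was done on nuclear lysate, so the values describe nuclear RNA. There were 3 libraries, 1 for each antibody and 1 of the input shared by both, and no control immunoprecipitation was analysed here. With 1 library per group there is no replicate error and no test, and each ratio compares libraries. Of 10 embryonic stem cell markers, 7 were listed in each table, and none of 16 markers of endoderm, mesoderm, nerve cells, trophoblast or fibroblasts was listed in either, although a table of RNAs above the input cannot show that they were absent.

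Remodellers use the energy of ATP to slide, evict or exchange nucleosomes. SWI/SNF complexes are built on Smarca4 or Smarca2, and embryonic stem cells are known for a form with Smarca4, Arid1a and Smarcc1 that maintains their self-renewal. ISWI and CHD enzymes space nucleosomes or keep chromatin open, and INO80 and p400 complexes act on the histone variant H2A.Z. Bromodomains bind acetylated lysines of histones, and ARID domains bind DNA. Mettl3 carries out the catalysis that places m6A, a methyl mark on adenosines of RNA, mostly within short motifs such as GGACT and often near the stop codon of long mRNAs. Zfp217 is a zinc finger protein found with chromatin corepressors.

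The GGACT motif was therefore searched in the mRNAs' sense strand, in the 400 bases centred on the end of the stop codon, with GENCODE M21 transcripts matched by identifier. Member transcripts without an annotated stop codon have no such window; these are mostly 3′-incomplete models and include all listed transcripts of Chd2, Chd7 and Atrx. The motif was present in 9 of the 31 Mettl3-listed member transcripts that have such a window (29.0%), against 38.5% of the 4678 protein-coding transcripts of that table that have one. For Zfp217 it was present in 6 of 24, against 41.1% of 3335. Over the whole transcript the median density was about 1 motif per kb in Mettl3-listed members, against 0.97 in all protein-coding transcripts of the table. A match is a description of sequence, and no methylation was measured here. The site nearest to the stop codon is shown for 7 genes with full-length mRNAs to place the motif in its context, written as cDNA from 5′ to 3′, with the motif in capitals and 10 bases on each side.
Chd9: catcctccgaGGACTcagactcgag
Brd3: gagtgaactcGGACTgggacagagc
Chd1: ttgtcttccgGGACTttgttttagc
Ep400: tactgtttgtGGACTctgggatctg
Smarcc1: ggggatggcaGGACTtgtgtctcgg
Smarcb1: gccatcctgaGGACTggggtaggag
Smarcc2: tattatccacGGACTtctgactaaa
The Chd9 site is in the coding sequence, with its first base at -27 from the last base of the stop codon, and both listed Chd9 transcripts share it. The 780-base Bptf transcript also has a coding site, at -135, which is not shown. The other sites shown follow the stop codon, with first bases at 5 in Brd3, 26 in Chd1, 58 in Ep400, 54 in Smarcc1, 98 in Smarcb1 and 192 in Smarcc2. The windows of Arid2, Pbrm1, Smarcad1 and the main Brd2 transcript, which stood among the higher ratios of the Mettl3 RIP below, did not hold these letters, while their whole transcripts held 8, 11, 4 and 4 copies. Chd9 and Brd3, whose windows held the motif, also stood among the higher ratios, at 3.01-fold and 2.67-fold. A relation of the motif to the ratios was not tested.

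Levels are FPKM, fragment numbers scaled by transcript length and library size, as the authors deposited them. Both tables are selections. The lowest RIP value was 1 FPKM, and wherever the input was above 0 the RIP exceeded it at least 1.5 times. Unless another class is named, a listed gene or transcript is a protein-coding one. These limits are the lowest values seen, and the authors' full rule of selection was not known here. A gene that is not listed may have been below these limits, left out by another criterion or not measured. Absence from a table is therefore not a measured low ratio, and no listed member can be lower than the input. Depth was estimated from the steps of the FPKM values of short genes, at about 9940000 fragments for the Mettl3 RIP, 7120000 for the Zfp217 RIP and 6160000 for the input. From it, the reads behind a transcript and a 95% exact counting interval of its ratio were computed. These intervals cover counting error only, not the spread between cultures or the assignment of shared reads to transcripts of 1 gene.

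Member mRNAs of every complex were found above the input in the Mettl3 RIP, and those of each except the single-gene Smarcad1 class also in the Zfp217 RIP. On the scale log2((RIP + 1)/(input + 1)), which understates the ratio of low transcripts, 36 of the 44 Mettl3 transcripts averaged at least 1 FPKM over the 2 libraries and were kept. Of these, 24 (66.7%) were at least 2-fold higher in the RIP on this scale, on which all such counts are made, against 48.4% of all 4954 kept protein-coding transcripts of the table. For Zfp217, 25 of 38 were kept and 13 (52.0%) were at least 2-fold higher, against 45.2% of 3646.

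Both counts rested in part on inputs at or near 0. An input under 0.01 FPKM was listed for 15 of the 44 Mettl3 members (34.1%, against 27.7% of all protein-coding transcripts of that table) and for 20 of the 38 Zfp217 members (52.6%, against 37.1%). A kept transcript with such an input passes the 2-fold rule by construction. Without them, 14 of 26 Mettl3 transcripts were at least 2-fold higher (53.8%, against 38.0% of all), and 4 of 16 Zfp217 transcripts (25%, against 27.8%). With RIP and input both at least 1 FPKM, the counts were 9 of 19 for Mettl3 (47.4%, against 34.5%) and 1 of 11 for Zfp217 (9.09%, against 20.7%). Plain FPKM ratios, given for single transcripts below, can exceed 2 where this scale does not, as for Brd3, Brd8 and Arid4a in the Zfp217 RIP. The Mettl3 share thus stayed above that of all transcripts under each of these limits, and the Zfp217 share was above it only with the near-0 inputs. Transcripts of 1 gene share reads, so these are not independent counts.

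**Figure D1:**
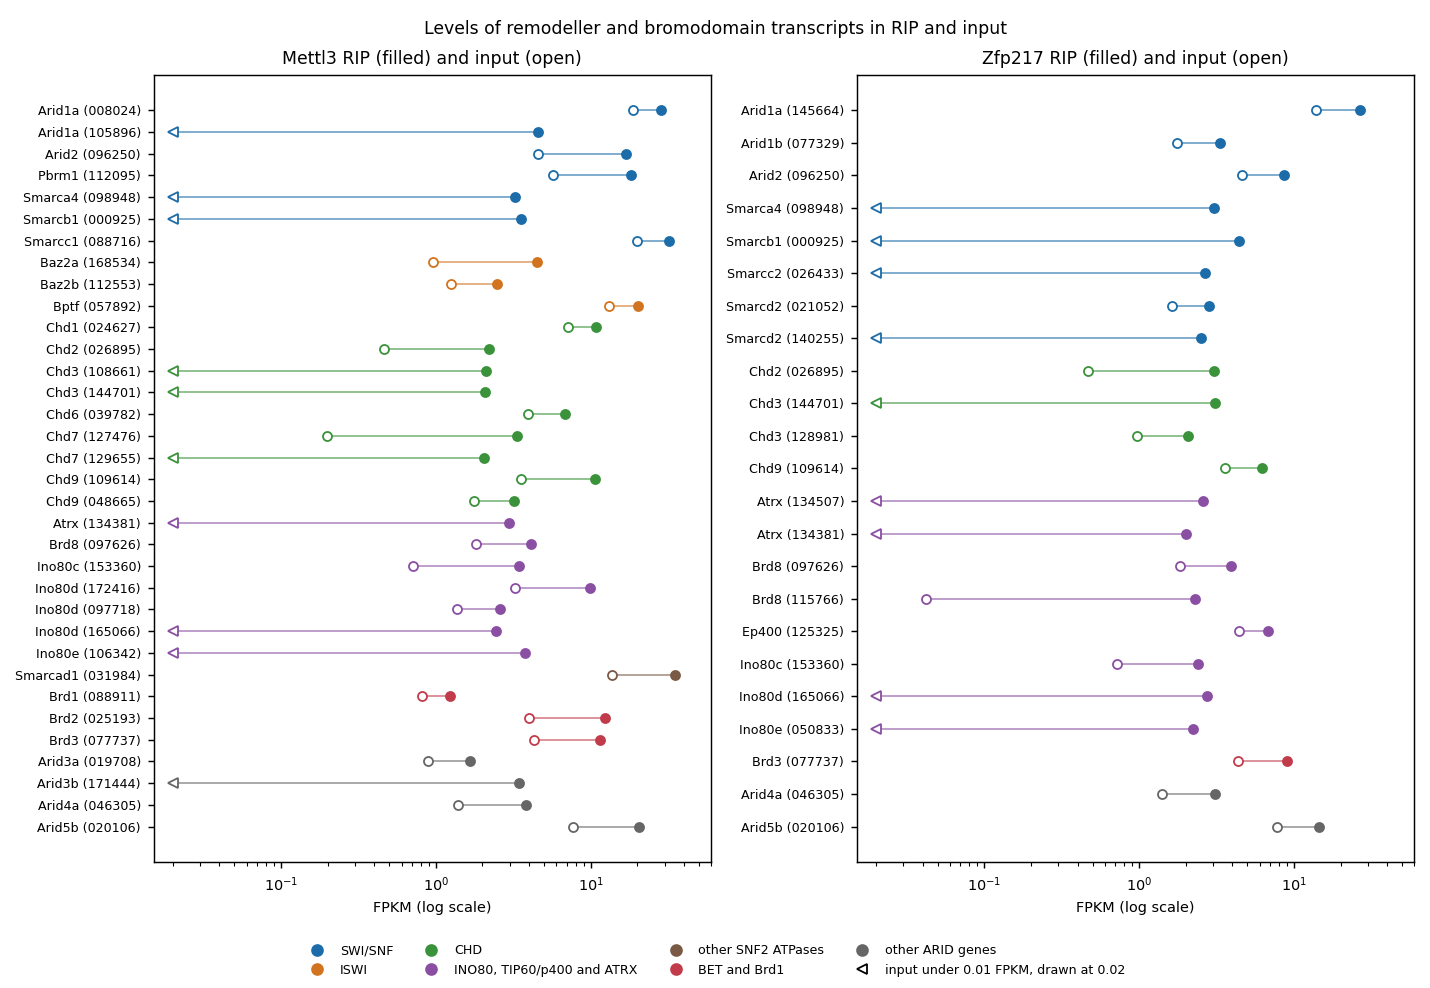
FPKM on a log scale for 34 kept member transcripts from Mettl3 and 23 from Zfp217 (last 6 digits of its Ensembl identifier), with the RIP as a filled point and the input as an open point, coloured by complex; the left panel is the Mettl3 table and the right panel the Zfp217 table. Triangles at the left edge of each panel, 10 for Mettl3 and 9 for Zfp217, are transcripts with an input under 0.01 FPKM, and RIP levels reach 35.1 FPKM for Smarcad1 in the Mettl3 RIP.

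Counting each gene once, by its transcript of highest mean FPKM, the median log2 ratio was 1.36 over 29 member genes in the Mettl3 RIP, against 0.95 over 4323 genes. In the Zfp217 RIP it was 0.95 over 20 member genes, against 0.88 over 3244. By complex, the Mettl3 medians were 1.60 over 6 SWI/SNF genes, 1.37 over 5 genes of the INO80, p400 and ATRX group, 1.24 over 6 CHD genes, 1.16 over 4 other ARID genes and 0.62 over 3 ISWI genes. In the Zfp217 RIP they were 1.46 over 3 CHD genes, 1.34 over 6 genes of the INO80, p400 and ATRX group and 0.90 over 7 SWI/SNF genes, and no ISWI transcript was kept. The groups are too small for their order to be read, and their ranges overlapped.

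**Figure D2:**
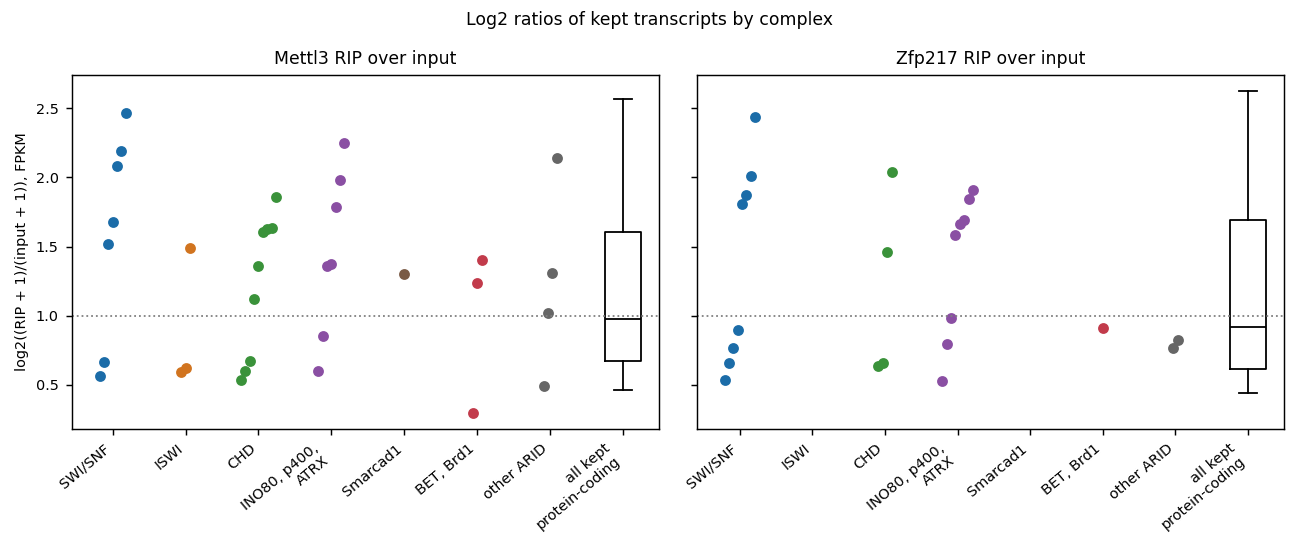
Log2((RIP + 1)/(input + 1)) of the same 34 and 23 kept member transcripts by complex, drawn side by side from low to high within a complex, with a box for all kept protein-coding transcripts of the table (line at the median, box at the quartiles, whiskers at the 5th and 95th percentiles); the dotted line is 2-fold. Points of the SWI/SNF, CHD and INO80 classes lie on both sides of 2-fold in both panels, and the ISWI and Smarcad1 columns are empty for Zfp217.

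Among SWI/SNF mRNAs, those of Arid2 and Pbrm1, which define the PBAF form of the complex, had the highest ratios in the Mettl3 RIP where both values were at least 1 FPKM. Arid2 (ENSMUST00000096250) was at 16.9 FPKM in the Mettl3 RIP against 4.60 in the input, a ratio of 3.68 with an interval of 3.21 to 4.24. In the Zfp217 RIP Arid2 was at 8.58 FPKM against 4.65, 1.85-fold higher (1.58 to 2.16), so the intervals of the ratios for the antibodies did not overlap. Pbrm1 (ENSMUST00000112095), a bromodomain subunit, was at 18.3 FPKM in the Mettl3 RIP against 5.72 in the input, 3.19-fold higher (2.81 to 3.65), and it was not listed for Zfp217. About 1407 and 1411 Mettl3 RIP reads lay behind Arid2 and Pbrm1, so counting error was small. In GRCm38 Arid2 lies on chromosome 15 from 96287518 to 96404992 (plus strand) and Pbrm1 on chromosome 14 from 31019138 to 31121592 (plus strand). Brd7, another bromodomain subunit of PBAF, was listed only with noncoding transcript classes.

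Of the stem cell form, Smarcc1 and Arid1a were among the most abundant members. Smarcc1 (ENSMUST00000088716), a scaffold subunit, was at 32.1 FPKM in the Mettl3 RIP against 19.95 in the input, 1.61-fold higher (1.47 to 1.76). For Zfp217 only a second Smarcc1 transcript was listed, at 1.31 FPKM against 0.298. Arid1a, the DNA-binding subunit of BAF, was listed with different main transcripts in the tables. ENSMUST00000008024 was at 28.4 FPKM in the Mettl3 RIP against 18.8, 1.51-fold higher (1.38 to 1.64), and ENSMUST00000145664 was at 26.8 FPKM in the Zfp217 RIP against 13.9, 1.92-fold higher (1.76 to 2.11). Neither was listed in the other table, so the gene as a whole cannot be compared between antibodies. Another Arid1a transcript, ENSMUST00000105896, had 4.57 FPKM against 0.00678 for Mettl3 and 1.85 against 0.00801 for Zfp217.

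Several core SWI/SNF mRNAs were listed at or near 0 in the input, and no fold is given for them. Smarca4, the ATPase, was listed with ENSMUST00000098948 at 3.24 FPKM in the Mettl3 RIP against 0, and at 3.03 in the Zfp217 RIP against 0. It is 1 of 4 annotated Smarca4 transcripts, and a second, at 1.28 FPKM against 0.000370, was listed for Zfp217. Smarcb1, a core subunit that contacts the nucleosome, was at 3.56 FPKM in the Mettl3 RIP and 4.42 in the Zfp217 RIP, against 0 in each table. A retained-intron transcript of Smarcb1 was listed for Mettl3, at 2.36 FPKM against 1.20. Smarcc2, the paralogue of Smarcc1, was at 1.36 and 2.66 FPKM against under 0.0001 in the input. Each of these genes has several annotated transcripts, and the part of read assignment among them was not tested.

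The remaining SWI/SNF members were low. Arid1b, the paralogue of Arid1a, had 1 transcript listed in both tables, at 1.16 FPKM in the Mettl3 RIP against 0.531 in the input, and at 1.44 FPKM in the Zfp217 RIP against 0.537. A second Arid1b transcript was listed for Zfp217 only, at 3.34 FPKM against 1.74. Smarcd2 and Smarce1, accessory subunits, had protein-coding transcripts listed for Zfp217 only, and Smarcd2 retained-intron transcripts in both tables. The higher of the Smarcd2 transcripts was at 2.82 FPKM in the Zfp217 RIP against 1.64, a ratio of 1.72 (1.06 to 2.87), and its other transcript was at 2.49 FPKM against 0. Smarce1 was at 1.41 FPKM against 0.

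**Figure D3:**
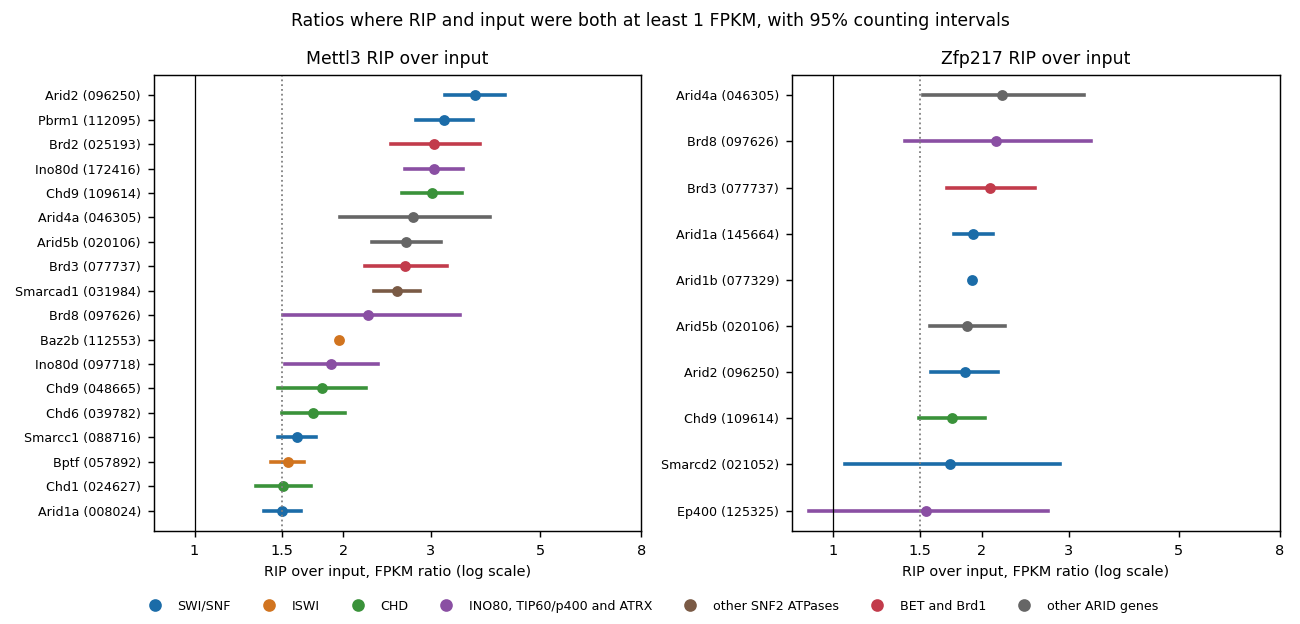
Plain FPKM ratios of RIP over input with 95% exact counting intervals, for 18 Mettl3 and 10 Zfp217 member transcripts with RIP and input both at least 1 FPKM, on a log axis, coloured by complex; the solid line is a ratio of 1, the dotted line is the tables' lower limit of 1.5, and points without a bar have no annotated length. In the Mettl3 panel Arid2 and Pbrm1 are highest and Arid1a lowest, and Arid4a is highest of those drawn for Zfp217.

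Across members with both values at least 1 FPKM, 19 for Mettl3 and 11 for Zfp217, the median ratios were 2.43 and 1.91. In the whole tables the medians under the same limit were 2.07 for Mettl3 and 1.87 for Zfp217. For Mettl3, 18 members had an interval and all 18 lay above 1, of which 12 lay above the 1.5 limit. For Zfp217, 9 of 10 lay above 1 and 6 above 1.5, and the interval of the 974-base Ep400 transcript included 1. Since only ratios of at least 1.5 were listed, intervals above 1 follow largely from that selection and from read numbers. These counts were not made over all transcripts, so they only describe counting error and are not a result about the members.

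Of the ISWI group, Bptf, the largest subunit of the NURF complex, was the most abundant. Its full-length transcript of 11488 bases (ENSMUST00000057892) was at 20.1 FPKM in the Mettl3 RIP against 13.1 in the input, 1.54-fold higher (1.43 to 1.67), and it was not listed for Zfp217. A 780-base Bptf transcript was at 1.27 FPKM in the Mettl3 RIP and 1.36 in the Zfp217 RIP, against 0 in each table. Baz2a, a subunit of the complex that silences ribosomal RNA genes, had a higher ratio, 4.70-fold, at 4.50 FPKM in the Mettl3 RIP against 0.957 in the input, and was not listed for Zfp217. Its paralogue Baz2b was at 2.47 FPKM in the Mettl3 RIP against 1.26, 1.96-fold higher, and Zfp217 listed other Baz2b transcripts at 1.92 and 1.22 FPKM against 0. The Baz2a and Baz2b ratios have no counting interval, since GENCODE M21 gave no length for these transcripts. The ATPase Smarca1 was at 1.29 FPKM in the Mettl3 RIP against 0.306. The other ATPase, Smarca5, and its partners Baz1a and Baz1b had no protein-coding transcript in either table.

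In the CHD family, Chd9 had the highest ratio of those with 1 FPKM or more in both libraries. Its transcript ENSMUST00000109614 was at 10.7 FPKM in the Mettl3 RIP against 3.55 in the input, 3.01-fold higher (2.63 to 3.46), and at 6.24 FPKM in the Zfp217 RIP against 3.59, 1.74-fold higher (1.49 to 2.03). These intervals did not overlap. A second Chd9 transcript was at 3.19 FPKM in the Mettl3 RIP against 1.76. Chd1, which is needed for the open chromatin of embryonic stem cells, was at 10.9 FPKM in the Mettl3 RIP against 7.19, 1.51-fold higher (1.33 to 1.72), and Zfp217 listed only a shorter transcript at 1.52 FPKM against 0. Chd6 was at 6.81 FPKM in the Mettl3 RIP against 3.91, 1.74-fold higher (1.5 to 2.02), and for Zfp217 it was listed only with retained-intron and processed transcripts.

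Other CHD mRNAs were low in the input. Chd7, an enzyme found at enhancers, was listed for Mettl3 only, where a transcript of 2381 bases was at 3.35 FPKM against 0.199. Its 16.8-fold ratio had a wide interval of 5.54 to 83.4, since the input held about 2.77 reads. A 1571-base Chd2 transcript was at 2.19 FPKM in the Mettl3 RIP against 0.465, 4.71-fold higher (1.67 to 18.4), and at 3.05 FPKM in the Zfp217 RIP against 0.470, 6.49-fold higher (2.30 to 25.3). These intervals overlapped widely. Chd3, an ATPase of the NuRD corepressor, had a 7261-base transcript at 2.11 FPKM in the Mettl3 RIP and 1.47 in the Zfp217 RIP, against 0 in each table. A further Chd3 transcript, listed for Zfp217 only, was at 2.06 FPKM against 0.965, 2.13-fold higher (1.41 to 3.30).

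For the INO80 complex, the regulatory subunit Ino80d was the most abundant. Its transcript ENSMUST00000172416, of 13438 bases, was at 9.87 FPKM in the Mettl3 RIP against 3.25 in the input, 3.04-fold higher (2.66 to 3.48), and was not listed for Zfp217. The transcript ENSMUST00000165066 of nearly the same length was at 2.44 FPKM in the Mettl3 RIP and 2.76 in the Zfp217 RIP, against 0 in each table. Another Ino80d transcript was at 2.60 FPKM in the Mettl3 RIP against 1.38, a ratio of 1.89. Ino80c was at 3.44 FPKM in the Mettl3 RIP against 0.711, 4.83-fold higher (2.50 to 10.5), and at 2.39 FPKM in the Zfp217 RIP against 0.719, 3.33-fold higher (1.64 to 7.47). Ino80e was listed with a different transcript for each antibody, at 3.77 FPKM for Mettl3 and 2.23 for Zfp217, both against 0. The ATPase Ino80 itself was not listed.

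Of the p400 complex, Brd8, its bromodomain subunit, had nearly the same ratio with each antibody for the transcript ENSMUST00000097626. It was at 4.10 FPKM in the Mettl3 RIP against 1.82, 2.25-fold higher (1.51 to 3.43), and at 3.93 FPKM in the Zfp217 RIP against 1.84, 2.13-fold higher (1.4 to 3.32). A second Brd8 transcript, for Zfp217 only, was at 2.30 FPKM against 0.0421, with about 1.07 input reads and an interval of 9.45 to 2185 around its ratio of 54.5. The full-length mRNA of the ATPase Ep400 was at 1.85 FPKM in the Mettl3 RIP and 1.66 in the Zfp217 RIP, against 0 in each table. A 3673-base Ep400 transcript was at 2.73 FPKM in the Mettl3 RIP against 1.74, and at 2.80 FPKM in the Zfp217 RIP against 1.76. The authors class it as nonsense-mediated decay, while GENCODE M21 has it as protein-coding, and it is not among the members. A 974-base Ep400 transcript was listed for Zfp217 only, at 6.79 FPKM against 4.41, a ratio of 1.54 (0.893 to 2.72). Atrx, which deposits histone H3.3 at heterochromatin together with Daxx, was listed with protein-coding transcripts of 916 to 1716 bases only, each with an input of 0, at most 2.95 FPKM in the Mettl3 RIP and 2.59 in the Zfp217 RIP.

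Smarcad1, an ATPase of heterochromatin maintenance, had the highest RIP level of all members. It was at 35.1 FPKM in the Mettl3 RIP against 13.7 in the input, 2.57-fold higher (2.31 to 2.86), with about 1751 RIP and 427 input reads, and was not listed for Zfp217. The gene lies on chromosome 6 from 65042583 to 65116061 (plus strand, GRCm38).

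The mRNAs of the BET proteins Brd2 and Brd3, which read acetylated histones at active genes, were more than 2-fold above the input in the Mettl3 RIP for their main transcripts. Brd2 (ENSMUST00000025193) was at 12.3 FPKM in the Mettl3 RIP against 4.03 in the input, 3.05-fold higher (2.49 to 3.77), and no protein-coding Brd2 transcript was listed for Zfp217. Brd3 was at 11.4 FPKM in the Mettl3 RIP against 4.28, 2.67-fold higher (2.21 to 3.24), and at 8.99 FPKM in the Zfp217 RIP against 4.32, 2.08-fold higher (1.70 to 2.56). Brd1, a subunit of histone acetyltransferase complexes, was at 1.23 FPKM in the Mettl3 RIP against 0.815, with an interval of 0.914 to 2.57 around its ratio of 1.51 that includes 1. GENCODE M21 classes this Brd1 transcript as a retained intron without a coding sequence, while the authors' table has it as protein-coding.

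Of the other ARID genes, Arid5b, a DNA-binding coactivator, was the most abundant. It was at 20.4 FPKM in the Mettl3 RIP against 7.64, 2.68-fold higher (2.28 to 3.15), and at 14.4 FPKM in the Zfp217 RIP against 7.72, 1.87-fold higher (1.57 to 2.23). GENCODE M21 classes this transcript as subject to nonsense-mediated decay, while the authors' table has it as protein-coding. Arid4a, a partner of the Sin3 corepressor, was at 3.84 FPKM in the Mettl3 RIP against 1.39, 2.76-fold higher (1.96 to 3.95), and at 3.09 FPKM in the Zfp217 RIP against 1.41, 2.20-fold higher (1.52 to 3.22). Arid3b was at 3.42 FPKM in the Mettl3 RIP and 1.56 in the Zfp217 RIP, against 0 in each table. Arid3a was listed for Mettl3 only, at 1.67 FPKM against 0.895, and Arid5a for Zfp217 only, at 1.08 FPKM against 0.

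Comparing the antibodies, more member genes had protein-coding transcripts listed for Mettl3 alone (Arid3a, Baz2a, Brd1, Brd2, Chd6, Chd7, Pbrm1, Smarca1 and Smarcad1) than for Zfp217 alone (Arid5a, Smarcd2 and Smarce1), 9 against 3, and 24 genes were listed for both. The Mettl3 table was also longer over all classes, with 9501 transcripts against 8120. With protein-coding transcripts it listed 5311 gene symbols, against 4311 for Zfp217. Genes listed for Mettl3 alone or Zfp217 alone were not counted over all protein-coding genes. The 9 against 3 is therefore not read as a trait of the members. Of the 23 shared transcripts 15 were kept in both tables, and their median difference of log2 ratios, Mettl3 minus Zfp217, was 0.25 (quartiles -0.19 and 0.44). Over all 2045 protein-coding transcripts kept in both it was 0.11 (-0.17 and 0.44). The members' median was below this, at 0.065, with only remodelling complexes and remodeller ATPases. Without the filter on low values the members' median was 0.10, but the median over all transcripts was not taken without it. The ratio was higher for Mettl3 in 10 of 15 members, against 1244 of 2045.

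The shared input largely cancels in this difference, which leaves the ratio of the RIP levels, after the Mettl3 table's input scale of 0.989 times the Zfp217 table's. This sets levels across tables that were scaled separately. The ratio's counting interval lay above 1 for 5 of the 15 and below 1 for 1. This was not counted over all 2045 transcripts, so it is not read as a trait of the members. Among those above were Arid2 (1.99, interval 1.80 to 2.21), Chd9 (1.73, 1.56 to 1.93), Arid5b (1.43, 1.27 to 1.62) and Brd3 (1.28, 1.12 to 1.47). Of the transcripts kept in only 1 table or neither, Arid3b (2.22, 1.58 to 3.18) and the 7261-base Chd3 transcript (1.45, 1.09 to 1.95) were higher in the Mettl3 RIP, and Smarcc2 (0.519, 0.366 to 0.733) was lower. Intervals around Chd2 (0.726, 0.427 to 1.24), the 430-base Chd3 transcript (0.681, 0.182 to 2.55) and the 1716-base Atrx transcript (0.588, 0.325 to 1.05) include 1. Smarca4 (1.08, 0.864 to 1.35), Brd8 (1.05, 0.786 to 1.42), Smarcb1 (0.813, 0.541 to 1.23) and the Ino80d transcript ENSMUST00000165066 (0.894, 0.757 to 1.06) had intervals that include 1.

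**Figure D4:**
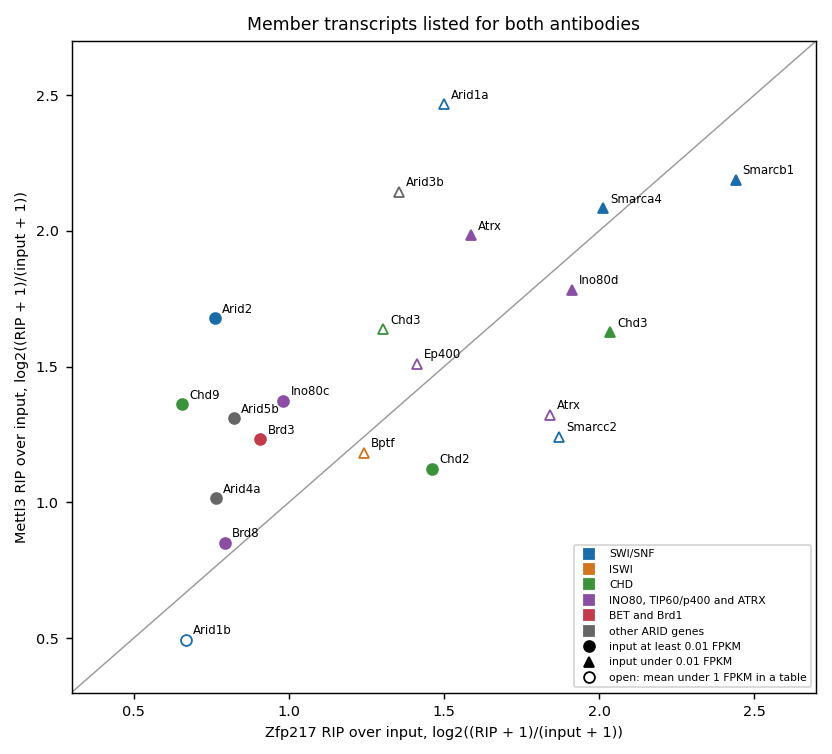
Log2((RIP + 1)/(input + 1)) of 21 member transcripts listed for both antibodies, Zfp217 on the x axis and Mettl3 on the y axis, coloured by complex, with equality as a line; circles have an input of at least 0.01 FPKM, triangles less, and open symbols have a mean under 1 FPKM in at least 1 table. Arid2, Chd9 and Arid5b lie above the line, while Smarca4, Ino80d and Brd8 lie close to it.

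At least 2-fold higher in both RIPs were 7 of the 15 members (46.7%, against 36.4% of the 2045 transcripts). Without inputs under 0.01 FPKM these were 2 of 10 (against 21.1% of 1648), Chd2 among them. With RIP and input at least 1 FPKM in both tables it was 0 of 7 on this scale, against 13.9% of 1162, although the plain ratios of Brd3, Brd8 and Arid4a were above 2 in both RIPs. The 2 ratios have their input library in common, and a low input raises both.

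Member transcripts were long. The median annotated length of kept members was 5272 bases in the Mettl3 table, against 3411 over all kept protein-coding transcripts, and 3604 in the Zfp217 table, against 2512. Within the members with an input of at least 1 FPKM, the rank correlation of ratio with length was -0.18 over 18 transcripts for Mettl3 and 0.08 over 10 for Zfp217, given as a description. Across all such protein-coding transcripts, which share the same libraries, it was 0.12 over 2802 and -0.17 over 1782.

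Of 53 annotated protein-coding genes whose symbols match the rule, 33 (62.3%) were listed for Mettl3 and 27 (50.9%) for Zfp217. Of all 21951 annotated protein-coding genes, 21.6% and 17.2% were listed, but these include genes that embryonic stem cells do not express. They were also counted through transcripts found in GENCODE M21 (88.3% and 88.8% of each table), while members were counted by symbol. The shares are thus not counted alike. Listed only with a noncoding or retained-intron class were 5 genes, Baz1a, Baz1b, Smarca5, Brd7 and Smarcal1. Not listed at all were 12: Smarca2, Smarcd1, Smarcd3, Brd9, Chd1l, Chd5, Chd8, Ino80, Ino80b, Arid3c, Arid4b and Brd3os, the last of which shares its symbol's start with Brd3 but encodes no bromodomain protein.

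Other subunits of these complexes, related ATPases and partners such as Daxx, whose symbols are outside the rule, gave a comparison. The list held 54 symbols, of which GENCODE M21 annotates 52. For Mettl3 27 were listed and 10 of the 21 kept genes passed 2-fold (all genes 46.2%), their median log2 ratio being 0.90. For Zfp217 21 were listed and 9 of 16 passed 2-fold (all genes 42.7%), their median being 1.26. The ISWI partner Rsf1 was at 5.11 FPKM in the Mettl3 RIP against 1.06 in the input, 4.81-fold higher, and at 1.84 FPKM in the Zfp217 RIP against 1.08, 1.71-fold higher. Yeats4, a histone reader of the p400 complex, had the opposite order, at 7.81 FPKM in the Mettl3 RIP against 4.15 and at 14.7 FPKM in the Zfp217 RIP against 4.19. Of 22 other bromodomain genes, 15 were listed for Mettl3, with 6 of 14 at least 2-fold higher, and 9 for Zfp217, with 3 of 8. Brwd3 was at 10.1 FPKM in the Mettl3 RIP against 2.01, 5.03-fold higher, and had no protein-coding transcript listed for Zfp217. Kat2a, an acetyltransferase, was at 10.7 FPKM in the Zfp217 RIP against 2.88, 3.72-fold higher, and was not listed for Mettl3.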

How the data were processed

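The authors deposited FPKM values of input and RIP for each listed Ensembl transcript, with a log2 fold change that was not used, in 2 tables. The build mm9 and the programs TopHat2 2.0.8, Bowtie2, Cuffdiff, Cufflinks and CASAVA 1.4 are named, per the submitters' processing notes, without roles or settings. Samples were grouped by title and antibody label. Ratios were taken within a table, with a pseudocount of 1 FPKM on the log2 scale and a mean of at least 1 FPKM. Plain folds are given only for inputs of at least 0.01 FPKM.

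Depth was fitted as the fragment number and mean fragment length that made most FPKM values of single-transcript genes of 50 to 500 bases whole reads, within 0.04 reads: 55.1% of 196 values for the Mettl3 RIP, 59.3% of 204 for the Zfp217 RIP and 76.8% of 82 for the input. The remaining values were not whole, so depth and the counting intervals are estimates. Reads came from length less the mean fragment length. GENCODE M21 (GRCm38) gave lengths, stop codons, sequences and coordinates, and held 41 of 44 Mettl3 and 33 of 38 Zfp217 member transcripts. Python 3.11.15, scipy 1.17.1 and pandas 2.3.3 were used.

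Genes were to be named in full where their main transcript had both values at least 1 FPKM, by the highest ratios, and where the antibodies differed most, 5 each way; the other members are given by their table. Members and lists were chosen with earlier results of these data known. Alternatives varied the pseudocount, the filter, near-0 inputs, transcript classes, the symbols taken and the summing of transcripts. The values of 1 member gene are not reported here and not drawn; it stays in the counts and medians.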

Additional observations from a re-analysis of the deposited data

Results flagged for a closer look

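Transcripts of the member genes in classes other than protein-coding were outside the comparisons above. The following had at least 5 FPKM in a RIP, above the input. A retained-intron transcript of Arid1a (521 bases) was at 12.6 FPKM in the Mettl3 RIP against 0 in the input. A processed transcript of Bptf (1433 bases) was at 6.88 FPKM in the Mettl3 RIP against 1.12, 6.12-fold higher (95% counting interval 3.08 to 13.8), while the full-length Bptf mRNA was 1.54-fold higher. A retained-intron transcript of Brd2 (610 bases) was at 6.21 FPKM in the Mettl3 RIP against 2.37, 2.62-fold higher (1.12 to 7.08). A processed transcript of Brd7 (667 bases) was at 5.46 FPKM in the Zfp217 RIP against 0.00743.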

How the results depend on the processing

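With RIP and input each at least 1 FPKM, the members at least 2-fold higher on the log2 scale with a pseudocount of 1 FPKM numbered 9 for Mettl3, 1 for Zfp217 and 0 for both, against 24, 13 and 7, and the median log2 ratios over genes were 1.02 and 0.76, against 1.36 and 0.95. Without inputs under 0.01 FPKM the counts were 14, 4 and 2, the medians 1.23 and 0.78, and the median difference between antibodies 0.36, against 0.25. With no filter on low values, the Zfp217 count was 24 of 38 (63.2%), against 13 of 25 (52.0%), and the joint count was 14 of 23. The Zfp217 median was then 1.24 and the difference 0.10. Those 24 hold all 20 Zfp217 members with an input under 0.01 FPKM. For such inputs a RIP of 1 FPKM alone gives about 2-fold with a pseudocount of 1 FPKM. Under a pseudocount of 0.1 FPKM the joint count became 12 of 15, and the medians were 1.58 and 1.34. Shares over all protein-coding transcripts were not taken under either setting. Taking all transcript classes gave a Zfp217 median of 0.82, and summing a gene's listed transcripts 1.32. With only subunits of named remodelling complexes and remodeller ATPases, the Zfp217 median was 1.22 and the difference 0.065. The filters change which transcripts enter, and a smaller pseudocount gives near-0 inputs more weight; beyond this the cause was not tested. Other values stayed within 1.5 times (counts) or 0.1 (medians), and none changed sign. The smaller pseudocount by construction raises each of 30 single-transcript log2 ratios. In the Mettl3 RIP, those of Chd9 (ENSMUST00000109614) and Ino80d (ENSMUST00000172416) moved by more than the one-sided width of their counting interval. The transcripts of Baz2b for Mettl3 and Arid1b (ENSMUST00000077329) for Zfp217 have no interval, so their moves could not be judged. The others moved by less. No paired analysis was possible because each group had 1 library. Depth limits transcripts with few input reads, such as Chd7 and Chd2.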
